A study of Mus musculus with 28 samples.

Results

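The 9 genes described here are known for marking fields of the hippocampal formation: Prox1, Dsp and Tdo2 for the granule cells of the dentate gyrus, Wfs1, Fibcd1, Spink8 and Neurod6 for the pyramidal cells of the CA fields, and Zbtb20 and Nr3c2 for several fields at once. They were chosen by name, as the array probes whose accession leads to these symbols, out of 20660 symbols that could be named on the array. Where a gene had several probes, the probe with the highest mean level was used.

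The levels come from Transcriptome Tomography: a frozen brain is cut into thin sections along a body axis, neighbouring sections are collected as a fraction, and the RNA of each fraction is measured on a microarray. Whole brains of 3 male C57BL/6J mice, 3 weeks old, with no treatment or engineered allele named in the labels, gave 12 coronal fractions, 6 horizontal fractions and 10 sagittal fractions, with 1 mouse per plane. Each fraction was hybridised to 1 array, so no position has a replicate, and mouse and plane cannot be told apart. A fraction crosses the whole brain at its position, so each level mixes hippocampus with all other tissue in that slab, and fewer cells of a type and less RNA per cell cannot be told apart.

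The dentate gyrus is the entry of the hippocampal circuit. Its granule cells receive input from the entorhinal cortex and send mossy fibres to CA3, whose pyramidal cells project to CA1, the main output field. The hippocampus is a paired, curved structure in the posterior forebrain, below the neocortex and above the thalamus, and several of its marker genes are also used by neurons elsewhere, such as cortical pyramidal cells, thalamic neurons or cerebellar neurons.

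Levels are on a log2 scale relative to the 75th percentile of the signals on the same array, so 0 is the level of the 75th percentile probe and a difference of 1 is a doubling. Levels of different probes are not set against each other. Here a probe is called above background on an array where at least 0.5 of its spots carry the scanner software's flag for a signal well above background. The 28 arrays differed in brightness: the 75th percentile of the signal was 135 in sagittal fraction 1, 176 in sagittal fraction 9 and 205 in sagittal fraction 10, and up to 574 in the coronal series. Repeated spots of 1 probe had a median SD of 0.055 to 0.080 log2 on an array. The fractions behaved as slabs of brain: the mean of 6 cerebellar granule cell markers was highest in coronal fraction 3, at 3.30 above its series mean, the mean of 6 neocortical markers was highest in coronal fraction 9, at 1.44, and in horizontal fraction 1, at 1.15, and the mean of 6 thalamic markers was highest in coronal fraction 6, at 1.18. The thalamic markers did not share a position. Of the 6, 2 passed the coronal test described below, with fitted curves highest at fraction 8 (Ramp3) and fraction 1 (Rora). By the cerebellar and neocortical markers, low coronal numbers are called posterior and low horizontal numbers dorsal below.

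A change along a series was tested as the F-test of a smooth curve over the fraction number (limma, a natural cubic spline), adjusted over 32364 probes. In the coronal series 33.7% of all probes passed, in the horizontal series 15.8% and in the sagittal series 14.7%. Of the 9 genes, 5 passed in the coronal series, 2 in the horizontal series and 3 in the sagittal series. The median fitted range of the 9 genes was 3.13 log2 in the coronal series against 0.90 over all probes, 1.47 against 0.74 in the horizontal series and 1.66 against 1.06 in the sagittal series. The coronal and horizontal medians are the values of Tdo2, which was above background in 5 of 12 and 1 of 6 of these fractions. These medians thus rest partly on levels at background.

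To let the gene starts be compared, the 250 bases before the start of 4 genes are given from RefSeq (GRCm38.p6), on the strand of the gene and read 5′ to 3′. Prox1 and Dsp are shown because their levels moved together in the sagittal series, and Wfs1 and Neurod6 because they are the CA genes above background in every fraction. The region of Prox1 is chr1:190170828-190171077 on the minus strand, that of Dsp chr13:38151044-38151293 on the plus strand, that of Wfs1 chr5:36988983-36989232 on the minus strand and that of Neurod6 chr6:55681264-55681513 on the minus strand. Capitals mark the E-box CAGATG or its reverse complement CATCTG, letters that transcription factors of the NeuroD family are known to bind.
Prox1: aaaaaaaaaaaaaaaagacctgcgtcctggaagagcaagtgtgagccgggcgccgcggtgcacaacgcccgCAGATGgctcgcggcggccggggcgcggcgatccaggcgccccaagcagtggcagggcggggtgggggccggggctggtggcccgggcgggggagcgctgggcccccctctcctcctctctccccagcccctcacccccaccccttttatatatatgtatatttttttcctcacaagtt
Dsp: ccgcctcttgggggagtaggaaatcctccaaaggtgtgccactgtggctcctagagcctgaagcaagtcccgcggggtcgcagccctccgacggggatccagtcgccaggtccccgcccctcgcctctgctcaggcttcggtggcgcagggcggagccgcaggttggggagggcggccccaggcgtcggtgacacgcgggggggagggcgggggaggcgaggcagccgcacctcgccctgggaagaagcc
Wfs1: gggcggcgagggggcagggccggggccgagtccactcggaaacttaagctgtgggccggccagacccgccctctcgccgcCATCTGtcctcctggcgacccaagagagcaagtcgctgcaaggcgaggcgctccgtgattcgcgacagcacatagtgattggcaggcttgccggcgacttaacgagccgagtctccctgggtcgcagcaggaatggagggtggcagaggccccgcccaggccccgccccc
Neurod6: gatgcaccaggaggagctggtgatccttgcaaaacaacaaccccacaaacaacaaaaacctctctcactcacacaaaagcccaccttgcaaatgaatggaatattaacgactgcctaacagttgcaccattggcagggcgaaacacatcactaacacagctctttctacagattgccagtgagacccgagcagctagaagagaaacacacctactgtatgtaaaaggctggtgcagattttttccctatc
An entry was found for 8 of the 9 genes, with 2 starts for Prox1. Searched on both strands, CAGATG was found once in the Prox1 region shown and once in the Wfs1 region, and in none of the other entries. Of 32851 promoters of the same length, 14.4% held it. The palindrome CAGCTG, held by 13% of the promoters, was in no entry of the 8 genes. These matches are letters in a window and say nothing of binding.

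**Figure D1:**
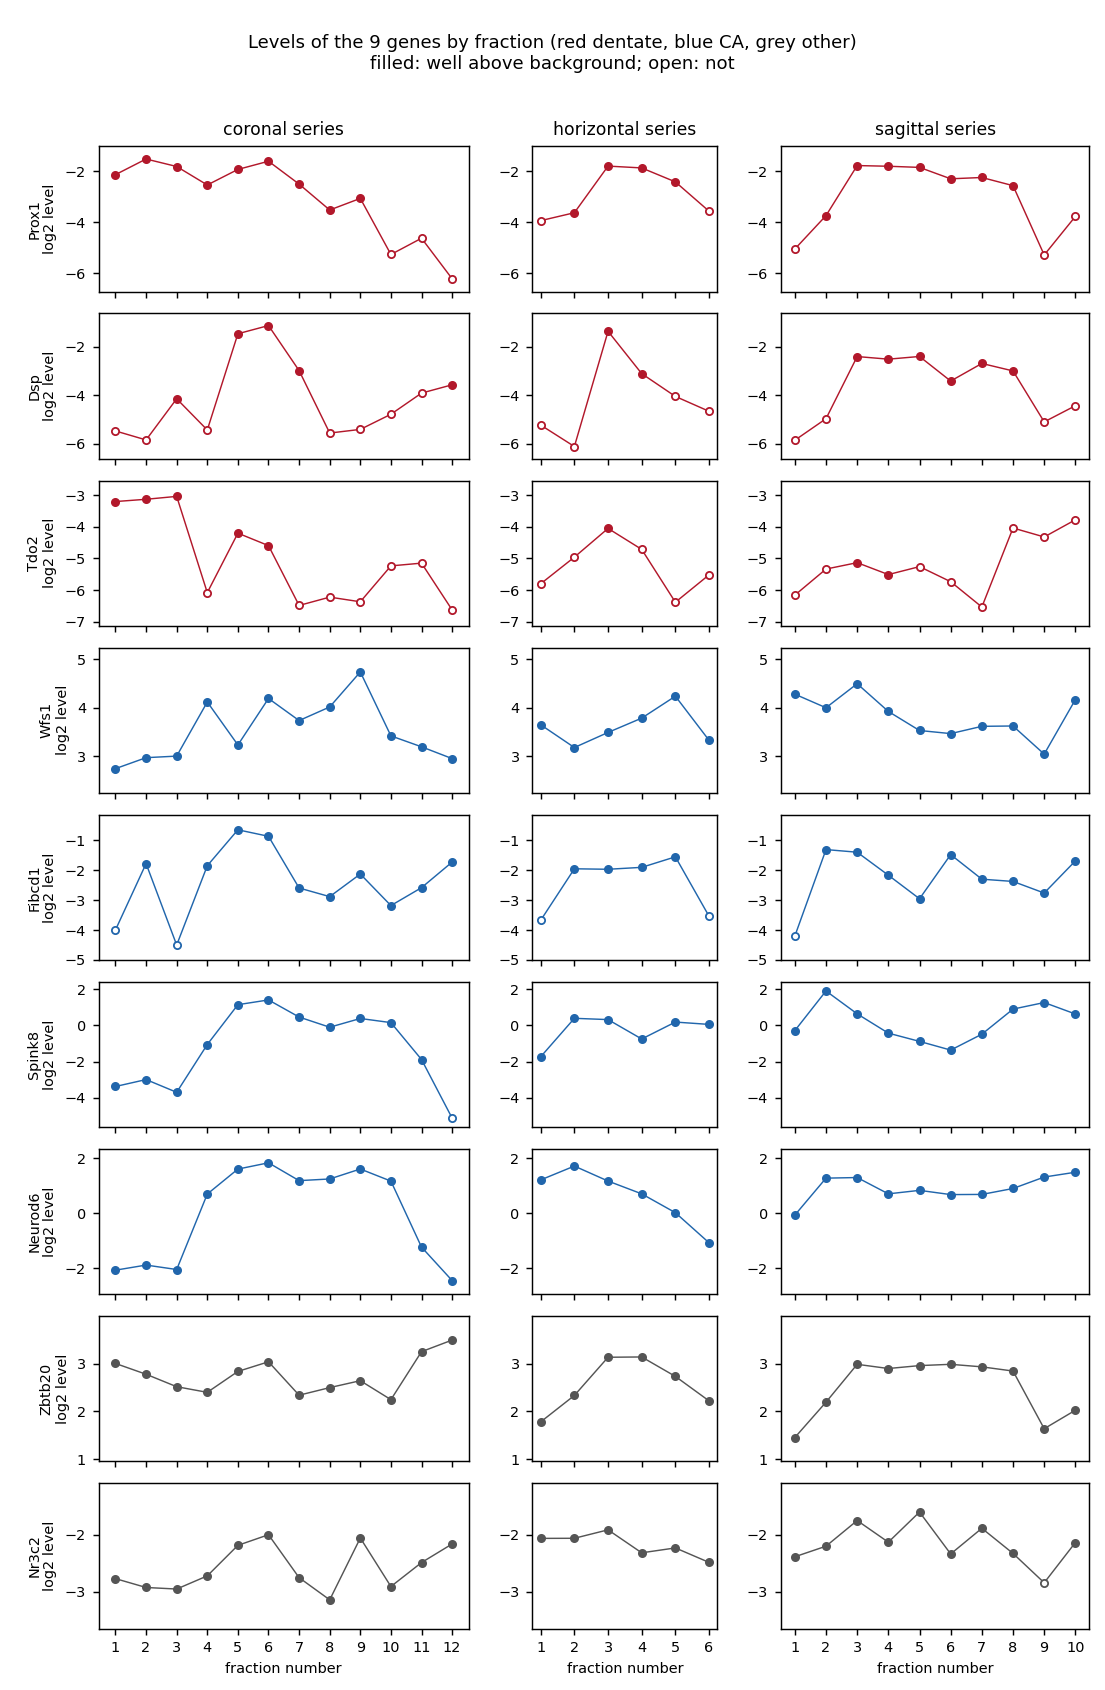
Levels of the 9 genes (rows) by fraction number in the coronal, horizontal and sagittal series (columns), on the log2 scale relative to the array's 75th percentile. Each point is 1 array of 1 mouse, filled where the probe was well above background and open where it was not, in red for dentate genes, blue for CA genes and grey for the other 2. Dsp stands highest in coronal fractions 5 and 6 and horizontal fraction 3, while Spink8 and Neurod6 stay high from coronal fraction 5 to fraction 10.

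Among the dentate genes, Prox1, the homeobox transcription factor that fixes granule cell identity, was high over the whole posterior part of the coronal series and fell towards its end. Its level was -6.22 at the lowest, -2.52 at the median and -1.51 at the highest over the 12 fractions. Fractions 1 to 6 lay between -2.53 and -1.51, and fractions 10 to 12 were not above background. The highest level, in fraction 2, was at least 8.35-fold above that of fraction 12. The fitted range was 4.24 log2 (adjusted p = 0.0010) and the call held when any 1 fraction was left out (adjusted p = 0.00139 to 0.00924). It did not hold among fractions 3 to 10 alone, which share a slide (2.97 log2, adjusted p = 0.0584), or with the slide as a term (adjusted p = 0.0716). Slide and position overlap in that last fit. The span of its curve, 6.02 log2, lay above the measured range of 4.705 and is not a measured change. Normexp background correction, which compresses dim probes, brought the coronal fitted ranges of the 3 dentate genes to between 0.97 and 1.17 log2, and Prox1 still passed (1.17 log2, adjusted p = 0.0107).

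There were 2 summits in this profile, fraction 2 at -1.51 and fraction 6 at -1.60, with fraction 4 between them at -2.53. The first lay where the cerebellar granule cell markers were high (3.28 above their mean in fraction 2). The second lay where the mean of the thalamic markers was highest. Over the 12 fractions, Prox1 had r = 0.72 with the mean of the thalamic markers, r = 0.55 with that of the cerebellar markers and r = 0.63 with that of 9 further dentate genes, all of them from the same arrays. The part of each tissue in the Prox1 level was not tested. From dorsal to ventral, Prox1 was highest in horizontal fractions 3 and 4, at -1.79 and -1.86, and lowest in fraction 1, at -3.93, with a median of -2.99. Both outer fractions, 1 and 6, were not above background, and fraction 3 was at least 3.6-fold above fraction 1. This fitted range of 2.33 log2 did not pass (adjusted p = 0.0501). It passed without fraction 2 (adjusted p = 0.0258), with quantile normalization (adjusted p = 0.0201) and scaled to the array median (adjusted p = 0.00531), where 59.8% of all probes passed.

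Dsp encodes desmoplakin, the protein that ties desmosomes to the cytoskeleton and a marker of mature granule cells. Over the coronal series its level was -5.84 at the lowest, -4.46 at the median and -1.12 at the highest. Fraction 6 stood at -1.12, fraction 5 at -1.46 and fraction 7 at -2.98, while fraction 4 and fraction 8, next to them, stood at -5.43 and -5.56 and were not above background. Its 10 spots per array had an SD of 0.084 in fraction 6 and 0.088 in fraction 5, so the difference of these 2 fractions was larger than the spread of spots. In fractions 4 and 8, not above background, the spot SD was 0.572 and 0.457. That spread is technical and holds no spread between animals.

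The highest Dsp level was at least 10.4-fold above the lowest. The smooth curve over 12 fractions, with a fitted range of 3.86 log2, did not pass (adjusted p = 0.177). It passed without fraction 4 (adjusted p = 0.0172). Dsp was also above background in fraction 3, at -4.14, and in fraction 12, at -3.57. In horizontal fraction 3 Dsp stood at -1.36, against -3.11 in fraction 4 and -6.11 in fraction 2, the lowest, with a median of -4.35. This made horizontal fraction 3 at least 9.68-fold above fraction 2, and only fractions 3 and 4 of the 6 were above background. The fitted range of 3.10 log2 did not pass (adjusted p = 0.285), but did when scaled to the array median (adjusted p = 0.0317). A second Dsp probe was above background on none of the 28 arrays, so the profile rests on 1 probe.

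Tdo2, the enzyme that opens the kynurenine pathway of tryptophan, was above background on 8 of 28 arrays. Over the coronal series its level was -6.62 at the lowest, -5.19 at the median and -3.04 at the highest. Fractions 1 to 3 lay at -3.20, -3.13 and -3.04, above fractions 5 and 6 at -4.20 and -4.60, and the other 7 were not above background. Tdo2 thus had its highest coronal levels in the fractions where the cerebellar markers were high, and had r = 0.76 with their mean over the 12 fractions. With the mean of 6 astrocyte markers it had r = 0.715. Whether the Tdo2 levels of fractions 1 to 3 come from the cerebellum or from astrocytes was not tested. Fraction 3 was at least 2.9-fold above fraction 12, and the fitted range of 3.13 log2 passed (adjusted p = 0.0395). The call was lost without fraction 1, 2, 3, 7, 8 or 9 (adjusted p = 0.0584 to 0.111). It did not pass among fractions 3 to 10 alone (adjusted p = 0.318), with the slide as a term (adjusted p = 0.558) or after normexp background correction (adjusted p = 0.0948).

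Horizontal fraction 3 was the only horizontal fraction with Tdo2 above background, at -4.05, against a lowest level of -6.38 and a median of -5.24. In the sagittal series only fractions 3 and 4, at -5.13 and -5.51, were above background. Its highest sagittal levels, -3.78 in fraction 10 and -4.04 in fraction 8, were on dimmer arrays and not above background, so they are bounds and no fold is given. Neither series passed for Tdo2 (adjusted p = 0.334 and 0.113). It passed in the sagittal series without fraction 8 (adjusted p = 0.0349) and after normexp background correction (adjusted p = 0.00962), in fits where 12.2% and 44.2% of all probes did, and in the horizontal series scaled to the array median (adjusted p = 0.0212). These passes rest mostly on levels not above background.

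Among the CA genes, Spink8, a member of the Kazal family of serine protease inhibitors known from CA1, was low in the posterior fractions and high from fraction 5 to fraction 10. Over the coronal series its level was -5.13 at the lowest, -0.58 at the median and 1.41 at the highest. Fractions 1 to 3 lay between -3.70 and -3.00, fractions 5 to 10 between -0.10 and 1.41, and fraction 12 was not above background. The highest level, in fraction 6, was at least 63.4-fold above fraction 12. The fitted range of 5.50 log2 passed (adjusted p = 0.00467), also without any 1 fraction (adjusted p = 0.00295 to 0.0151) and among fractions 3 to 10 alone (adjusted p = 0.00844). With the slide as a term it did not (adjusted p = 0.215), and the span of that curve, 7.93 log2, lay above the measured range of 6.541. Normexp background correction brought the fitted range to 3.31 log2 (adjusted p = 0.00222).

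Neurod6, a basic helix-loop-helix factor of pyramidal neurons in both neocortex and hippocampus, followed Spink8 closely along this axis. Its level was -2.46 at the lowest, 0.93 at the median and 1.83 at the highest, with fractions 4 to 10 between 0.69 and 1.83 and the other 5 at -1.24 or lower. Fraction 6 was 19.5-fold above fraction 12. The fitted range was 4.47 log2 (adjusted p = 0.00234), and it passed without any 1 fraction (adjusted p = 0.00129 to 0.0100) and among fractions 3 to 10 alone (adjusted p = 0.0190). Neurod6 did not pass with the slide as a term (adjusted p = 0.187), where the curve spanned 6.00 log2 against a measured range of 4.289. The coronal profiles of Spink8 and Neurod6 had r = 0.97 over 12 fractions, the highest of the 6 pairs of CA genes.

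The pair parted along the dorsoventral axis. Neurod6 was highest in horizontal fraction 2, at 1.71, and lowest in fraction 6, at -1.08, with a median of 0.93, so fraction 2 was 6.94-fold above fraction 6. Spink8 was lowest in fraction 1, at -1.73, and stood between -0.75 and 0.39 in fractions 2 to 6, with a median of 0.12. Their horizontal profiles had r = -0.16 over 6 fractions. Neurod6 passed (fitted range 2.49 log2, adjusted p = 0.0199) and lost the call without fraction 3, 4 or 6 (adjusted p = 0.0658 to 0.0686), whereas Spink8 did not pass (1.35 log2, adjusted p = 0.424). The difference between these 2 profiles was not tested. Neurod6 went with the mean of the neocortical markers in both series (r = 0.93 coronal, 0.87 horizontal), and Spink8 did so in the coronal series (r = 0.86). How much of either level came from neocortex was not tested.

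Wfs1, the endoplasmic reticulum protein wolframin, and Fibcd1, a membrane receptor for acetylated sugars, are both known from CA1. Along the coronal axis Wfs1 had r = 0.698 with Spink8 and Fibcd1 r = 0.435. Wfs1 was above background on all 28 arrays. Over the coronal series it was 2.75 at the lowest, 3.33 at the median and 4.74 at the highest, in fraction 9, where it was 3.98-fold above fraction 1. Its next highest levels were 4.19 in fraction 6 and 4.12 in fraction 4, with 3.23 in fraction 5 between them. Along this axis Wfs1 had r = 0.78 with the mean of the neocortical markers and 0.74 with that of 6 striatal markers. With the mean of 6 astrocyte markers it had r = -0.82. Their part in the Wfs1 level was not tested. The fitted range of 1.41 log2 passed narrowly (adjusted p = 0.0489) and the call held in 2 of the 12 fits that left out a fraction, those without fraction 4 or 5 (adjusted p = 0.0289 to 0.102 over the 12). It did not pass among fractions 3 to 10 alone (adjusted p = 0.594), with the slide as a term (adjusted p = 0.62) or scaled to the array median (adjusted p = 0.105). Along the horizontal series Wfs1 was highest in fraction 5, at 4.24, 2.08-fold above fraction 2, at 3.18, with a median of 3.57, and did not pass (adjusted p = 0.815).

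Fibcd1 was highest in coronal fraction 5, at -0.66, and next in fraction 6, at -0.87, with a median of -2.36. Its lowest level, -4.50 in fraction 3, was not above background, and the ratio was at least 14.4-fold. The neighbouring fraction 2 stood at -1.78, so this probe moved unevenly between neighbours at the posterior end. The curve did not pass over 12 fractions (2.49 log2, adjusted p = 0.284). It passed without fraction 3 (adjusted p = 0.0368) and among fractions 3 to 10 alone (3.52 log2, adjusted p = 0.0459). In the horizontal series Fibcd1 lay between -1.97 and -1.56 in fractions 2 to 5 and was not above background in fraction 1, at -3.67, and fraction 6, at -3.54 (adjusted p = 0.0950, 0.0495 without fraction 5 and 0.0116 scaled to the array median). Over the sagittal series it was -4.20 at the lowest, -2.24 at the median and -1.32 at the highest, in fraction 2 (adjusted p = 0.530).

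The other 2 genes span several fields. Zbtb20, a zinc finger repressor needed for hippocampal pyramidal cells and also made in astrocytes, was 2.25 at the lowest, 2.71 at the median and 3.49 at the highest, in fraction 12, along the coronal axis and did not pass (0.95 log2, adjusted p = 0.170). It did change along the dorsoventral axis, with 3.13 and 3.14 in horizontal fractions 3 and 4 against 1.78 in fraction 1 and a median of 2.53. This 2.57-fold difference belonged to a fitted range of 1.41 log2 (adjusted p = 0.0269). The call was lost without fraction 1, 3, 4 or 6 (adjusted p = 0.0592 to 0.139). Zbtb20 and Prox1 had r = 0.97 over these 6 fractions and r = 0.98 over the 10 sagittal ones. The mean of 6 astrocyte markers was highest in coronal fraction 1, at 0.87 above its mean, and Zbtb20 had r = 0.29 with it along that axis, 0.58 along the horizontal and 0.71 along the sagittal series. With the mean of the cerebellar granule cell markers it had r = 0.84 in the horizontal and 0.90 in the sagittal series. The same 2 values were 0.87 and 0.81 for 5 choroid plexus markers and 0.80 and 0.81 for the thalamic markers. For the striatal markers they were 0.84 and 0.56. Their part in the Zbtb20 level was not tested.

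Nr3c2, the mineralocorticoid receptor, varied little on this scale. It was -3.14 at the lowest, -2.74 at the median and -2.00 at the highest over the coronal series, and its highest fraction, 6, was 2.19-fold above fraction 8. Horizontal levels ran from -2.49 to -1.92, with a median of -2.15. In the sagittal series it was -2.84 at the lowest, in fraction 9, where it was not above background, -2.17 at the median and -1.61 at the highest. None of the 3 curves passed (adjusted p = 0.536, 0.274 and 0.482). The horizontal fitted range of 0.44 log2 became 1.46 log2 scaled to the array median and 1.29 log2 with quantile normalization, and passed in both (adjusted p = 0.0175 and 0.0423). Its range was larger than that of 37.8% of the probes tested in the coronal series and 20.8% in the horizontal series.

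Set side by side, each gene centred on its own series mean, the dentate and the CA genes had like means in coronal fractions 5 and 6. In fraction 6 the mean was 1.63 ± 1.30 (SD, n = 3 genes) for the dentate genes and 1.67 ± 0.82 (SD, n = 4 genes) for the CA genes. In fraction 5 it was 1.55 and 1.36. These dentate means rest on series means in which Dsp and Tdo2 were at background in 7 of 12 fractions, so the likeness is not exact. In fraction 4, next to fraction 5, the dentate minus CA difference was -1.11, with overlap and with Dsp and Tdo2 not above background. In fraction 3 it was 2.86, and 1.40 after normexp background correction. Fibcd1 was not above background there, and without it the difference was 2.75, but Dsp and Tdo2 are centred on series means in which 7 of 12 fractions were at background, so its size is not exact. In fraction 9 it was -2.05, but Dsp and Tdo2 were not above background there, so the size of that difference and the separation of the groups are not measured. The marker lists moved with this contrast: in fraction 3 the cerebellar list was 3.30 and the choroid plexus list 2.58 above its series mean and the neocortical list stood at -2.41, while in fraction 9 the neocortical list stood at 1.44 and the cerebellar list at -1.85. Their part in it was not tested. The groups hold a few chosen genes of 1 brain, so these differences are a description.

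**Figure D2:**
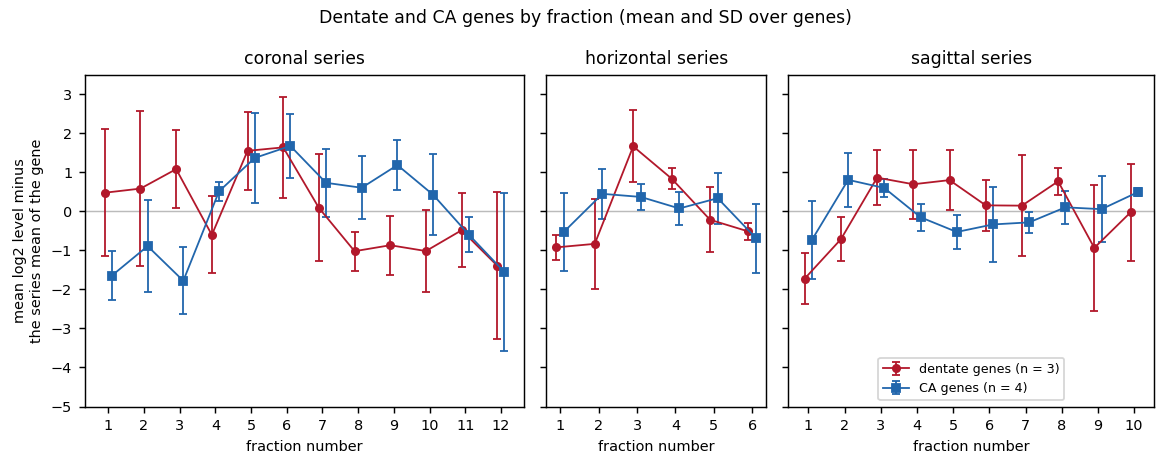
Mean of the 3 dentate genes (red circles) and of the 4 CA genes (blue squares) by fraction number in each series, as log2 level minus the series mean of the gene, with the SD over genes as error bars and 1 array per fraction. Levels not above background enter the means as measured. The means meet in coronal fractions 5 and 6 and part in fraction 3, where Fibcd1 was not above background, and the dentate mean stands at 1.66 in horizontal fraction 3, against 0.37 for the CA genes.

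The dentate genes also stood above the CA genes in horizontal fraction 3, by 1.30. Dsp was above background in 2 of the 6 horizontal fractions and Tdo2 in 1. The size of that difference and the separation of the groups are therefore not measured. That difference was 0.29 after normexp background correction and 0.76 without Dsp. Marker lists moved with it. In horizontal fraction 3 the cerebellar list was 1.32, the choroid plexus list 1.13 and the striatal list 0.52 above its series mean. The thalamic and astrocyte lists stood at 0.11 and the neocortical list at -0.08. The part of these tissues in the contrast was not tested. In sagittal fraction 5 the dentate minus CA difference was 1.33, and 0.50 after normexp. The groups barely parted there, with Tdo2, not above background, at -0.078 and Neurod6 at -0.080. The difference was -1.52 in sagittal fraction 2 and -1.28 in horizontal fraction 2, and in both Dsp and Tdo2 were not above background. The 3 pairs of dentate genes had r between 0.00 and 0.58 in the coronal series, but both genes of a pair were above background in only 3 to 5 of the 12 fractions, so these values rest mostly on levels at background and say little of a shared profile. The 6 pairs of CA genes had r between 0.34 and 0.97 there. The 12 pairs across the groups had r between -0.60 and 0.52, with a median of 0.09, and hold the same dentate levels. The CA pairs were less alike in the other series. Their r ran from -0.21 to 0.57 (median 0.07) in the horizontal and from -0.06 to 0.70 (median 0.19) in the sagittal series. Across the groups the medians there were 0.26 and 0.10. All these correlations come from fractions of 1 brain per series, whose neighbours resemble each other.

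The coronal fractions 4 to 6 and 7 to 9, on 1 slide, were compared as blocks of 3. Of all probes, 0% passed (0 of 32364 by limma after adjustment, and 3698 at an unadjusted p under 0.05), and none of the 9 genes did. Fractions 4 to 6 minus fractions 7 to 9 gave 1.01 ± 0.34 log2 (SE) for Prox1 (adjusted p = 0.385), above background in all 6. For Dsp the fit gave 1.98 ± 1.31 (adjusted p = 0.583) with fractions 4, 8 and 9 not above background, so its size is not measured. For Tdo2, not above background in fractions 4, 7, 8 and 9, neither the size nor the direction is measured, since the lowest signal well above background, -3.92 in fraction 8 and -4.06 in fraction 9, lay above its levels in fractions 5 and 6. Fibcd1 differed by 1.41 ± 0.36 in the same direction (unadjusted p = 0.00749, adjusted p = 0.315). Spink8 and Neurod6 differed by 0.25 ± 0.65 and 0.03 ± 0.32, and Wfs1 by -0.32 ± 0.36. For Neurod6 the 95% interval ran from -0.74 to 0.80, so differences of that size in either direction are within it.

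The horizontal fractions 1 to 3 against 4 to 6 gave 0% too (0 of 32364, with 1784 at an unadjusted p under 0.05). Neurod6 was 1.48 ± 0.47 log2 higher in fractions 1 to 3 (unadjusted p = 0.0196, adjusted p = 0.835). Of the other genes above background in all 6 fractions, Wfs1 differed by -0.34, Spink8 by -0.17, Zbtb20 by -0.28 and Nr3c2 by 0.33. Prox1 and Fibcd1 were not above background in fractions 1 and 6, Dsp in 4 of the 6 and Tdo2 in 5, so the size and direction of their differences are not measured. The peak of Dsp and Prox1 in fractions 3 and 4 lies across the border of these blocks.

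In the sagittal series the dentate genes Prox1 and Dsp were measured highest in the middle fractions and were mostly not above background at both sides. Prox1 was -5.28 at the lowest, -2.42 at the median and -1.77 at the highest, and fractions 3 to 8 lay between -2.56 and -1.77. Dsp was -5.85 at the lowest, -3.20 at the median and -2.40 at the highest, and fractions 3 to 8 lay between -3.41 and -2.40. Fractions 1, 2, 9 and 10 were not above background for Dsp, and fractions 1, 9 and 10 for Prox1. The highest fraction was at least 2.74-fold above the lowest for Dsp (fraction 5 over 1) and at least 2.39-fold for Prox1 (fraction 3 over 9). On the dim arrays of fractions 9 and 10 the lowest signal well above background was -3.03 and -3.35, higher than the Dsp level of fraction 6, so these 2 fractions do not bound Dsp below every middle fraction. The pair had r = 0.96 over the 10 fractions, of which 6 had both genes above background. Marker lists of other tissue moved with them: Prox1 and Dsp had r = 0.82 and 0.85 with the thalamic list, 0.84 and 0.82 with the cerebellar list and 0.74 and 0.78 with the choroid plexus list over these fractions. The part of these tissues was not tested.

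Prox1 and Dsp passed as smooth curves (3.42 log2, adjusted p = 0.0426, and 3.62 log2, adjusted p = 0.0355), as did Zbtb20 (1.58 log2, adjusted p = 0.0440), which lay between 2.84 and 2.99 in fractions 3 to 8 and at 1.45, 2.19, 1.64 and 2.02 in fractions 1, 2, 9 and 10. These calls were not firm. Without fraction 1, the dimmest array, the adjusted p was 0.256 for Prox1, 0.283 for Dsp and 0.260 for Zbtb20, in a fit where 0 of 32364 probes passed (5955 at an unadjusted p under 0.05). Prox1 and Zbtb20 also lost the call without each of fractions 2 to 7, and Dsp without fraction 2, 3, 4, 5 or 7. With the slide as a term the adjusted p was 0.0788, 0.0666 and 0.0844 for the 3 genes, and 7.79% of all probes passed. The curves of that fit spanned 3.72, 4.13 and 1.75 log2, above the measured ranges of 3.513, 3.454 and 1.535. These spans are not measured changes. After normexp background correction the fitted ranges of Prox1 and Dsp were 0.52 and 0.26 log2 (adjusted p = 0.493 and 0.790), while Zbtb20 still passed (1.70 log2, adjusted p = 0.00611). Scaled to the array median, none of the 9 genes passed in this series, where 1.04% of all probes then did.

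In the sagittal series Spink8 had r = -0.467 with Prox1 and r = -0.426 with Dsp. It was highest in fraction 2, at 1.91, and fraction 9, at 1.27, and lowest in fraction 6, at -1.36, with a median of 0.17 and a 9.66-fold ratio. A smooth curve of this form did not pass (1.88 log2, adjusted p = 0.449). Neurod6 was lowest in fraction 1, at -0.07, and lay between 0.67 and 1.49 in the other 9, with a median of 0.86. Wfs1 ran from 3.05 in fraction 9 to 4.50 in fraction 3, with a median of 3.78. Neither passed (adjusted p = 0.226 and 0.239).

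Mirror fractions (1 and 10, 2 and 9, and so on) were paired by number, which takes the midline to lie between fractions 5 and 6. That was not tested, and marker lists differed within pairs: the cerebellar list stood at 0.57 in fraction 2 and -1.16 in fraction 9, and the choroid plexus list at -4.06 in fraction 1 and -0.15 in fraction 10. The pairs come from 1 brain and lie on 2 slides. The mean absolute difference within the 5 pairs was 0.27 for Zbtb20, 0.47 for Spink8, 0.46 for Wfs1 and 0.44 for Neurod6, the genes above background in all 10 fractions, while the means of their pairs spanned 1.23, 2.71, 0.73 and 0.60. For Nr3c2 the difference within pairs was 0.49 against a span of 0.55, and for Fibcd1 1.31 against 1.06, each with 1 fraction not above background. The difference within pairs was 0.90 for Prox1, 0.67 for Dsp and 1.20 for Tdo2. No span is given for these 3, since their outer pairs were mostly not above background. From the outermost pair to the midline, Spink8 went 0.17, 1.59, 0.77, -0.46 and -1.12. Dsp went -5.14, -5.03, -2.70, -2.60 and -2.91, and Prox1 -4.41, -4.51, -2.16, -2.02 and -2.07. The highest mirror pair was thus the second from outside for Spink8, while the 3 inner pairs were alike for Prox1 and Dsp. Tdo2 gave -4.97, -4.83, -4.59, -6.02 and -5.50, with 8 of the 10 fractions not above background.

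The F-test over these 5 distances gave unadjusted p = 0.000964 for Spink8, 0.00163 for Dsp, 0.00430 for Prox1 and 0.00766 for Zbtb20, and adjusted p = 0.157, 0.175, 0.197 and 0.213. For Dsp it rests on 2 outer pairs at background, and for Prox1 on outer pairs in which only fraction 2 was above it. The other 5 genes had unadjusted p = 0.368 to 0.786. No probe of 32364 passed after adjustment (0%), and 5406 had an unadjusted p under 0.05. Without fraction 2, the second distance rests on fraction 9 alone, where Prox1 and Dsp were not above background. The span over the distances was then 2.39 log2 for Spink8 and 1.34 log2 for Zbtb20, against 2.71 and 1.23 with all fractions. Scaled to the array median, Dsp and Prox1 passed (adjusted p = 0.00103 and 0.00216), as did 3.46% of all probes.

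**Figure D3:**
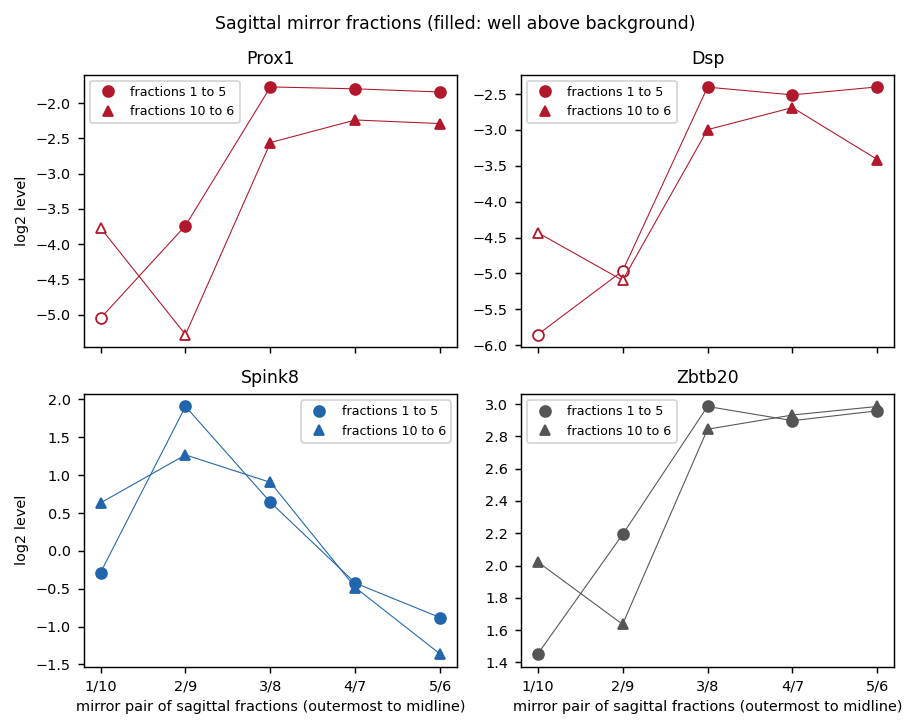
Levels of Prox1, Dsp, Spink8 and Zbtb20 (log2, relative to the array's 75th percentile) in the 5 mirror pairs of sagittal fractions, from the outermost pair to the midline. Circles are fractions 1 to 5, triangles fractions 10 to 6, filled where well above background, and each point is 1 array of the same mouse. Prox1, Dsp and Zbtb20 are high in the 3 inner pairs and Spink8 is highest in the pair 2/9.

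Further genes of the fields were taken as 4 lists of companions, 33 genes in all, of which 30 could be tested. In the coronal series 20 of the 30 passed, in the horizontal series 12 and in the sagittal series 9. Of all probes, 33.7%, 15.8% and 14.7% passed in these 3 fits. By field, 6 of 9 dentate companions passed in the coronal series, 5 of 7 for CA1, 5 of 8 for CA2 and 4 of 6 for CA3. Their median fitted ranges were 2.53 log2 for the dentate list, 2.56 for CA1, 1.24 for CA2 and 1.27 for CA3, against 0.90 over all probes. None of the 30 passed in the mirror or block comparisons, where 9, 4 and 8 had an unadjusted p under 0.05 (mirror, coronal and horizontal). Without coronal fraction 2 or 12, 13 companions passed in the coronal series, in fits where 25.1% and 32.8% of all probes did. Without horizontal fraction 3 or 4, or without sagittal fraction 1, limma called none of the 32364 probes after adjustment (10053, 7679 and 5955 had an unadjusted p under 0.05), and so none of the companions.

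Of the dentate companions, Calb1, the calcium buffer calbindin, which Purkinje cells of the cerebellum also hold, was highest in coronal fraction 3, at 0.95 (fitted range 5.09 log2, adjusted p = 0.00454). C1ql2, a secreted protein of mossy fibre synapses, was highest in fraction 5, at -0.55 (4.78 log2, adjusted p = 0.00249). Lct, the lactase gene, was highest in fraction 6, at 1.68 (3.67 log2, adjusted p = 0.0453). The dentate companions did not share a position: the fitted curves of the 6 that passed were highest at coronal fraction 1 (Calb1 and Plk5), 5 (C1ql2), 7 (Lct), 8 (Trpc6) and 12 (Stxbp6). In the horizontal series C1ql2 and Lct did not pass (adjusted p = 0.209 and 0.253), and of the 4 that did, Npnt and Trpc6 were fitted highest at fraction 1 (adjusted p = 0.0212 and 0.0283) and Plk5 and Sema5a at fraction 4 (adjusted p = 0.0209 and 0.0195).

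Of the CA1 companions, Ccn3, a matrix-associated protein, was highest in coronal fraction 10, at 1.87 (3.78 log2, adjusted p = 0.0168). Mpped1 was highest in fraction 9, at 5.07 (3.42 log2, adjusted p = 0.0232). Fraction 1 held the highest level of both in the horizontal and the sagittal series, where they passed too, whereas Spink8 was lowest in horizontal fraction 1. Whether these levels come from CA1 or from neocortex was not tested.

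Among the CA2 companions, Rgs14, a regulator of G protein signalling, was highest in coronal fraction 10, at 3.37 (7.12 log2, adjusted p = 0.00428). Ntf3, the neurotrophin NT-3, was highest in fraction 2, at 2.21 (5.83 log2, adjusted p = 0.000499), and Cacng5, an auxiliary subunit of AMPA receptors, in fraction 12, at 3.40 (3.39 log2, adjusted p = 0.00463). These 3 genes of 1 list were highest at opposite ends of the series. Among the CA3 companions, Coch was highest in fraction 8, at 0.87 (3.21 log2, adjusted p = 0.00175), Grik4, a kainate receptor subunit, in fraction 9, at 2.31 (2.25 log2, adjusted p = 0.00295), and Bok, of the BCL2 family, in fraction 10, at 3.89 (1.62 log2, adjusted p = 0.0495).

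**Figure D4:**
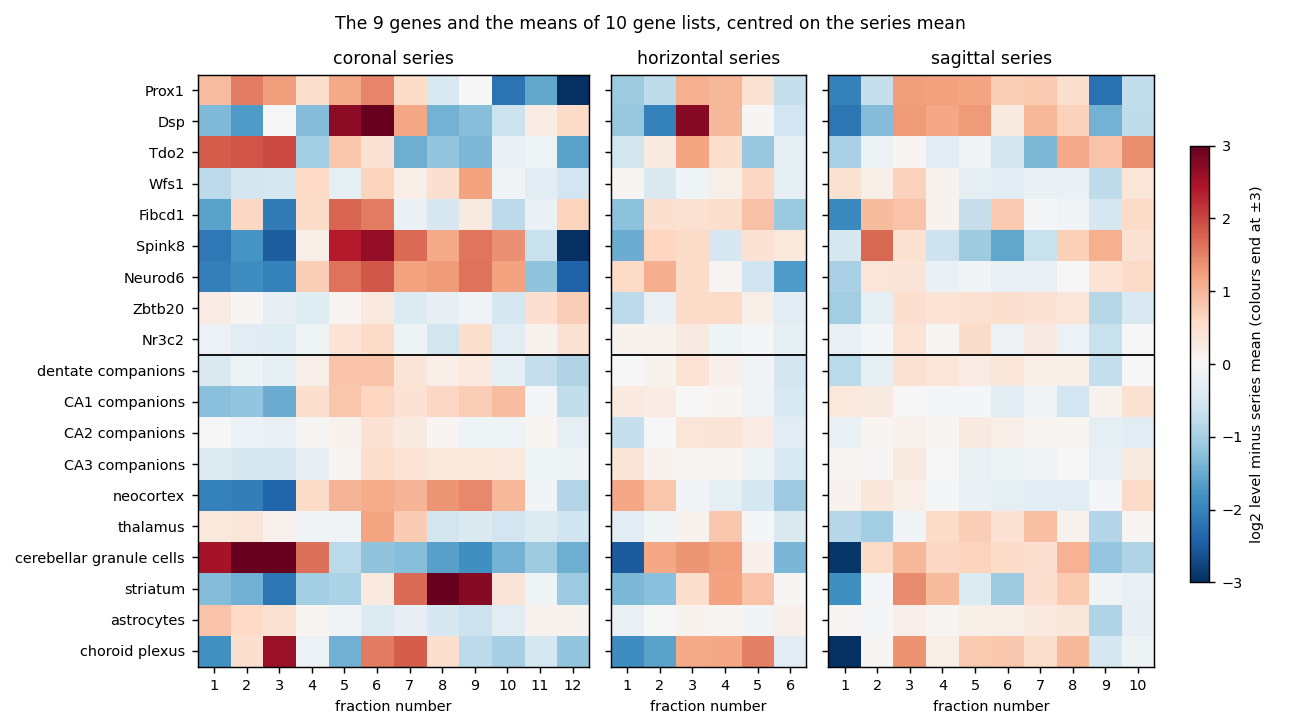
The 9 genes (above the line) and the means of 4 companion and 6 marker lists (below it) by fraction number in each series, as log2 level minus the series mean, with colours ending at 3 in either direction. The mean of the dentate companions is highest in coronal fractions 5 and 6, while the cerebellar list is highest in coronal fractions 1 to 4 and the neocortical list in fractions 4 to 10.

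The genes whose profiles were most alike to each member were named over the 28 fractions, each series centred. For Prox1 they were Kndc1 (r = 0.95), Eml1 (0.94) and Bmp1 (0.93), and 181 probes in all had r over 0.85. For Neurod6 they were Myh3 (0.96), Mal2 (0.96) and Vxn (0.96), with 104 such probes, and Zbtb20 had 61, led by Zfp609 (0.90) and Purg (0.90). Spink8 had 6 such probes, led by Myo5b (0.88), Pkp2 (0.87) and Vegfd (0.86). Pkp2 encodes plakophilin, like desmoplakin a protein of desmosomes.

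For the remaining 5 genes no probe had r over 0.85. Dsp was nearest to Nrp1 (0.73), Plekha2 (0.72) and Tgfb2 (0.72), and Tdo2 to Atoh8 (0.78), Mirt1 (0.78) and Tbata (0.76). Wfs1 was nearest to Zfp239 (0.82), Chrna7 (0.81) and Fam189b (0.80), Fibcd1 to Slc44a5 (0.75), Alg8 (0.73) and Adamts17 (0.73), and Nr3c2 to Ttyh3 (0.75), Arhgap39 (0.75) and Btbd9 (0.73). None of the 9 genes was among the 3 nearest of another. The highest of a great many correlations over 28 points is high for any gene, so these names are a description.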

How the data were processed

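Cy3-labelled cRNA of each fraction was hybridised to a 1-colour Agilent array. The deposited intensity values come, per the file headers, from Feature Extraction 10.5.1.1, which subtracts background. Spots flagged as outliers were left out, spots of a probe averaged, and log2 taken and scaled to the 75th percentile of the array. The log2 values that the authors deposited for 44721 probes equal this scale, but for a constant of 0.00111 to 0.00758 on each array, for probes with 1 spot; some probes with several spots, Dsp among them, differ more. Symbols came from a RefSeq table of GRCm38.p6, which named 48.9% of 55681 probes.

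Of 32426 probes above background at least once in every series, those with a usable spot on every array (32364) were tested with limma 3.58.1 in R 4.3.3: a spline of 3 degrees of freedom (2 in the horizontal series), 5 distances from the midline (taken between sagittal fractions 5 and 6), and blocks of 3 fractions, with Benjamini-Hochberg adjustment at 0.05. The fitted range is the span of the curve, without the slide part where the slide was a term. The residual around it is the only error, so p-values describe these 3 brains. The number of arrays limits the precision. The tests were checked on simulated data. A fold against a fraction not above background is a lower bound, whose base is the lowest signal above background on that array, or the probe's own level if higher.

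The text names the 9 genes, the 3 tested companions per list with the widest coronal fitted range, and the 3 symbols most alike to each gene, except 2 results that are not reported here. Genes and lists were chosen with earlier results of these data known. Alternatives were the array median, quantile normalization, normexp background correction (offset 50, on median foreground and background signals, in place of the mean signals first planned), no filter on dim probes, 2 spline degrees of freedom, the slide as a term, coronal fractions 3 to 10 alone, each fraction left out and, chosen after seeing the data, the log2 values deposited by the authors. Coronal fractions 1 and 2, 3 to 10, and 11 and 12 lay on 3 slides, and sagittal fractions 1 to 4 and 5 to 10 on 2, each slide being 1 scan. The labels and the study differ on the thickness of a fraction, so no distance is given. Coronal fraction 12 may be wider, since its label also names a fraction after it.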

Additional observations from a re-analysis of the deposited data

Results flagged for a closer look

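Neurod6 in sagittal fraction 1 stood apart from the other 9 sagittal fractions: its level of -0.07 was below the next lowest, 0.67, by 0.479 of the range of the series, past Dixon's 95% critical value for 10 values. Fraction 1 was the dimmest of the 28 arrays. Of 18 sets of fractions examined (the 9 genes in the horizontal and the sagittal series), 1 passed its limit, and 0.9 would by chance. The part of the array's low signal in this value was not tested.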

How the results depend on the processing

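No paired analysis was possible because equal fraction numbers mark positions along different axes of different mice, and every test lies within 1 series. With the slide as a term, the members that passed fell from 5 to 0 in the coronal and from 3 to 0 in the sagittal series, and the companions from 20 to 0 and from 9 to 5, while the share of all probes fell from 33.7% to 0.745% and from 14.7% to 7.79%. Slides follow position along both axes, so this term removes part of the position as well. A call lost with it does not show a smaller change, nor does a wider curve show a larger one. In coronal fractions 3 to 10 alone, 3 members and 11 companions passed (12.9% of all probes). With the array median, 7 members and 26 companions passed in the horizontal series (59.8% of all probes), 0 and 1 in the sagittal series (1.04%), and 2 and 4 by distance from the midline (3.46%). With quantile normalization, 4 members passed in the horizontal series (21.2% of all probes), and 1 member and 4 companions in the sagittal series (8.12%). With normexp, which compresses dim probes, 14 companions passed in the sagittal series (44.2% of all probes), the dentate minus CA difference was 1.40 in coronal fraction 3 and 0.29 in horizontal fraction 3, and the difference of Dsp between the horizontal blocks was 0.20 in place of -0.30. Without the filter on dim probes, 1 companion passed between the coronal blocks, where 17.6% of all probes did. The array median moved the median of all probes from -0.02 to 0.12 in the coronal block contrast and from 0.05 to 0.20 in the horizontal one.

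Leaving out 1 fraction at a time gave 3 to 6 members and 13 to 18 companions in the coronal series. It gave 0 to 3 and 0 to 13 in the horizontal series, and 0 to 4 and 0 to 14 in the sagittal series. The share of all probes in these fits was 24.5% to 34.4%, 0% to 17.8% and 0% to 47.1%. By distance from the midline, leaving out a fraction leaves 1 distance with 1 array, so no count is given. Both block contrasts kept 0 members and 0 companions. Of all 32364 probes, 0 to 17 passed between the coronal blocks and 0 between the horizontal ones. The differences that changed sign in some of these fits had not passed: between the coronal blocks, Spink8 ran from -0.20 to 1.03 and Neurod6 from -0.20 to 0.37, and between the horizontal blocks, Dsp ran from -1.73 to 0.64, Fibcd1 from -0.80 to 0.37, Spink8 from -0.54 to 0.53 and Zbtb20 from -0.64 to 0.037. With 1 array per position and dentate probes often at background, a fall below background is a bound and its depth is unknown.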
